A study of Canis lupus with 20 samples.

Results

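The genes described here are the heat shock proteins and co-chaperones on an Affymetrix canine expression array, measured in dog heart. They were picked by gene symbol alone: the HSP70, HSP90, HSP60, HSP10 and small heat shock protein genes, the J-domain proteins DNAJA, DNAJB and DNAJC, the BAG proteins, and the CCT chaperonin subunits. HSPBP1 and HSPBAP1, which belong to none of these families, entered by the form of their symbols and are counted with the rest. Each gene is represented by 1 probe set, the one with the highest mean over the 20 arrays, and no measured difference entered this choice of probe set. The symbol rule itself was chosen with earlier results of these data known. The rule found 76 genes, covered by 167 probe sets, among the 15115 genes that a probe set names alone. Of the 76 genes 67 were bright enough to be tested, and the other 9 (DNAJB3, DNAJB8, DNAJB13, DNAJC16, DNAJC22, DNAJC27, HSPA12A, HSPA12B and HSPB6) lay among the 30% of probe sets with the lowest mean. Of the tested genes 8 were dim, with a mean under log2 3 in every group (CCT6B, CCT8L2, DNAJB7, DNAJC6, DNAJC12, DNAJC18, DNAJC30 and HSPB9).

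Left atrial and left ventricular tissue came from normal dogs killed 12 weeks after right-sided uninephrectomy, the removal of the right kidney, or after a sham operation. There were 4 groups of 5 arrays: atrium of uninephrectomized dogs, atrium of sham dogs, ventricle of uninephrectomized dogs and ventricle of sham dogs. Each operation had 6 dogs assigned to it, 5 samples per chamber and operation were arrayed with 1 array each, and the sources used here do not give their age, sex or breed. Every value below is a log2 signal or a difference of log2 signals, a difference is followed by its standard error, and n is 5 arrays per group.

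Chaperones bind unfolded proteins and help them reach or regain their native shape. HSP70 proteins bind and release clients in a cycle driven by ATP: J-domain proteins bring the client and start hydrolysis, while BAG proteins and the HSP110 relatives (HSPH1, HSPA4, HSPA4L) exchange the nucleotide and free the client. Small heat shock proteins hold unfolding proteins without ATP and are abundant in heart muscle, where they associate with the contractile filaments. HSP90 matures signalling proteins and receptors, CCT folds actin and tubulin, and HSPD1 with HSPE1 folds proteins inside mitochondria. Many of these genes are induced together by heat shock factor HSF1 when proteins unfold, and others by the unfolded protein response of the endoplasmic reticulum.

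The arrays matched their chamber labels. The ventricular markers MYL2, MYL3, IRX3, IRX5 and MYH7 were lower in the atrium in both operation groups (5 of 5 tested), and 4 of 6 tested atrial markers were higher. Other cell type markers moved with the chamber too: 5 of 6 fibroblast markers were higher in the uninephrectomized atrium and 4 of 6 in the sham atrium, as were 4 of 5 and 3 of 5 smooth muscle and pericyte markers. Of 3 adipocyte markers 1 was higher, ADIPOQ, which ranged over 3.10 to 6.60 in uninephrectomized atria, 2.44 to 8.76 in sham atria, 1.81 to 2.11 in uninephrectomized ventricles and 2.11 to 2.40 in sham ventricles. Its chamber difference was 3.48 in uninephrectomized dogs (adjusted p = 0.00416 by limma) and 3.83 in sham dogs (adjusted p = 0.00264). Of 5 endothelial markers 1 was lower in the uninephrectomized atrium and 2 in the sham atrium. Cardiomyocyte markers were lower in the atrium for 4 of 8 genes in each operation group, with medians of -0.28 in uninephrectomized and -0.20 in sham dogs. The mean level of these 8 genes ranged over 13.12 to 13.26 in uninephrectomized atria, 13.18 to 13.23 in sham atria, 13.37 to 13.57 in uninephrectomized ventricles and 13.32 to 13.52 in sham ventricles. Immediate early genes were higher in the atrium for 5 of 8 genes in uninephrectomized and 4 of 8 in sham dogs. These are pieces of whole tissue, so fewer cells of a type and less RNA per cell cannot be told apart in any chamber difference below. RNA quality, read as the mean log2 gap between the 3' end and the middle or 5' end of control transcripts, was 1.10 ± 0.26 in uninephrectomized atrium, 1.19 ± 0.19 in sham atrium, 1.14 ± 0.15 in uninephrectomized ventricle and 1.42 ± 0.27 in sham ventricle (SD, n = 5 each). The part of cell makeup and of RNA quality in the chaperone results was not tested, beyond a fit with this gap as a covariate.

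The chaperone genes differed between atrium and ventricle, and 0 of the 67 tested genes passed the test for an effect of uninephrectomy. Between the chambers, 22 of 67 genes differed in uninephrectomized dogs, 8 higher and 14 lower in the atrium (limma, Benjamini-Hochberg adjusted p under 0.05 over 30047 probe sets). The share over all tested probe sets was 27.3%, with 14.7% higher and 12.5% lower. In sham dogs 17 of 67 differed, 5 higher and 12 lower, where the share over all tested probe sets was 20.8%, with 11.2% higher and 9.62% lower. Counting every gene once by its brightest probe set, the shares were 29.9% after uninephrectomy (16.2% higher, 13.7% lower) and 22.8% in sham dogs (12% higher, 10.8% lower). The share of chaperone genes that differed in either direction was thus near that of the whole array. By direction, their calls were more often lower than higher (14 against 8 in uninephrectomized and 12 against 5 in sham dogs). Calls over all tested probe sets were more often higher, and this lean was not tested. The median difference of the chaperone genes was also near that of the array. It was -0.02 in uninephrectomized and -0.03 in sham dogs, against -0.02 and -0.01 over all tested probe sets.

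The chamber comparisons in uninephrectomized and in sham dogs take their differences from different arrays. They share an estimate of the spread from all arrays, so their tests are not independent. In both comparisons 15 genes passed, each in the same direction. These 15 genes are 68.2% of the genes called in uninephrectomized dogs and 88.2% of those called in sham dogs, beside 62.0% and 81.1% over all tested probe sets. The 4 genes higher in the atrium in both were HSPA2, HSPA4L, BAG5 and DNAJB9. The 11 lower in the atrium in both were BAG1, HSPB7, HSPB8, HSPA4, HSPBAP1, DNAJB5, DNAJC2, DNAJC11, DNAJC15, DNAJC19 and DNAJC21. Over all 67 genes the sign of the difference was the same in both operation groups for 58 (86.6%), beside 80.7% of all tested probe sets.

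**Figure D1:**
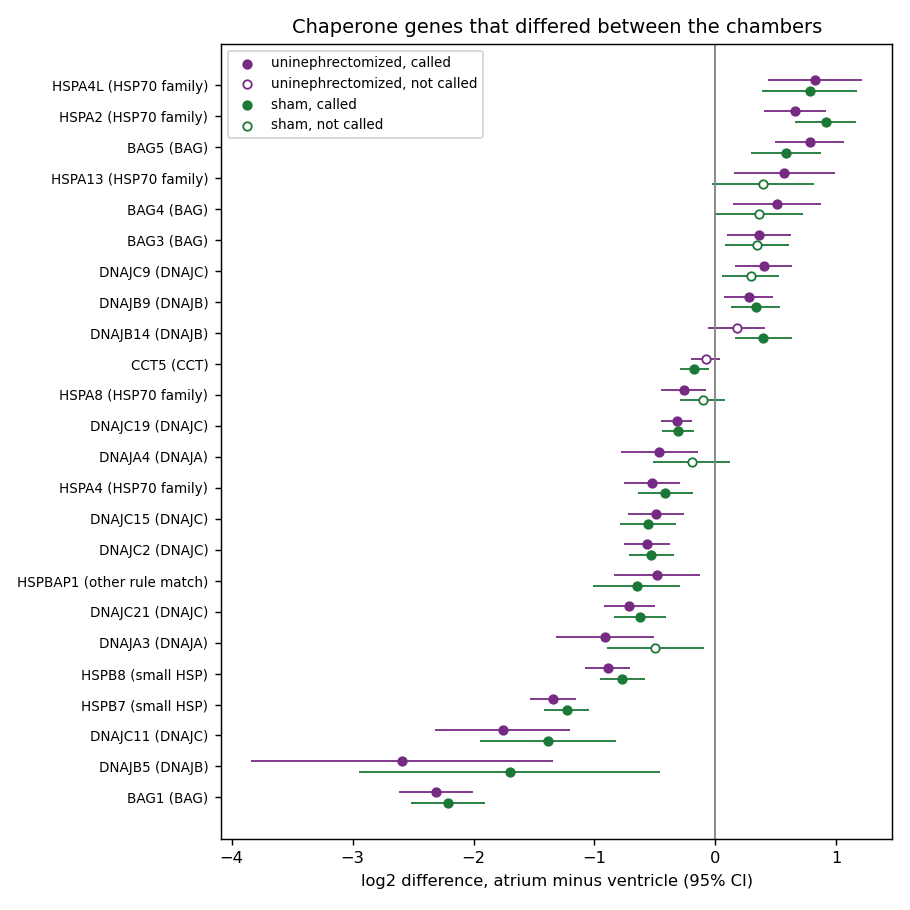
Log2 difference, atrium minus ventricle, with its 95% confidence interval for each chaperone gene called in at least 1 operation group, for uninephrectomized (upper) and sham dogs (lower) in each row; filled points passed the test and open points did not. BAG1 lies at -2.31 in uninephrectomized and -2.21 in sham dogs, DNAJB5 has the widest intervals, and HSPA2, HSPA4L and BAG5 lie to the right of 0.

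Among the small heat shock proteins HSPB7 and HSPB8 were lower in the atrium, and each of their 3 tested probe sets passed in both operation groups. HSPB7, the cardiovascular small heat shock protein, read 10.90, 10.99, 11.21, 10.86 and 11.32 in uninephrectomized atria, against 12.49, 12.48, 12.29, 12.41 and 12.32 in uninephrectomized ventricles. In sham dogs its atrial signals were 10.97, 11.16, 11.18, 11.23 and 11.14, against 12.54, 12.36, 12.17, 12.45 and 12.31 in the ventricle. Every atrial array lay below every ventricular array by more than the spread of either chamber. The difference was -1.34 ± 0.09 after uninephrectomy (2.54-fold lower in the atrium, adjusted p = 3.28e-09) and -1.23 ± 0.09 in sham dogs (2.35-fold lower, adjusted p = 1.21e-08).

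HSPB8, which works with BAG3 to hand damaged contractile proteins to autophagy, read 11.91, 11.93, 11.78, 11.79 and 11.90 in uninephrectomized atria, against 12.68, 12.98, 12.73, 12.78 and 12.60 in the ventricles. In sham atria it read 11.94, 11.66, 12.11, 12.00 and 11.69, against 12.68, 12.55, 12.57, 12.61 and 12.83 in sham ventricles. The atrial and ventricular arrays did not overlap in either operation group. The differences were -0.89 ± 0.09 in uninephrectomized dogs (adjusted p = 7.24e-07) and -0.77 ± 0.09 in sham dogs (adjusted p = 5.57e-06).

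The other tested small heat shock proteins did not pass by the probe set that stands for the gene. Counting HSPB7, HSPB8 and the dim HSPB9, the difference was negative for 6 of 6 tested members in each operation group. Over all probe sets it was negative for 15923 of 30047 in uninephrectomized and 15354 of 30047 in sham dogs. HSPB1 (HSP27) differed by -0.21 ± 0.09 in uninephrectomized dogs (adjusted p = 0.0846) and -0.10 ± 0.09 in sham dogs (adjusted p = 0.476). The second probe set of HSPB1 passed in uninephrectomized dogs at -0.51 (adjusted p = 0.0429) and differed by -0.21 in sham dogs (adjusted p = 0.458). HSPB3, a muscle form that assembles with HSPB2, differed by -0.35 ± 0.17 in uninephrectomized dogs (adjusted p = 0.133) and -0.44 ± 0.17 in sham dogs (adjusted p = 0.0729). With dog as a block for the sham arrays, whose numbers paired, the sham difference of HSPB3 had an adjusted p of 0.0376 as a random block and 0.0555 as a fixed block. HSPB2 differed by -0.10 in uninephrectomized and -0.11 in sham dogs, well within its spread of 0.17 to 0.34 SD per group. CRYAB, the alpha B-crystallin chaperone, is the neighbour of HSPB2 in the RefSeq gene table for dog. CRYAB averaged 11.92 ± 0.15 in uninephrectomized atria, against 12.58 ± 0.12 in the ventricles (SD, n = 5 each), a difference of -0.66 ± 0.10 (adjusted p = 8.3e-05). In sham dogs CRYAB was lower in the atrium as well (difference -0.50 ± 0.10, adjusted p = 0.00136). HSPB9, a testis form, was dim, and HSPB6 (HSP20) lay under the filter with a mean of 1.74 over the 20 arrays, so these probe sets give no usable reading of either gene.

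BAG1 had the largest called difference in sham dogs. BAG1 frees clients from HSP70 and links it to the proteasome. It read 7.19, 7.36, 7.11, 6.72 and 7.09 in uninephrectomized atria, against 9.35, 9.36, 9.22, 9.72 and 9.34 in the ventricles. In sham dogs the atrial signals were 7.36, 6.63, 7.29, 7.34 and 6.73, against 9.25, 9.20, 9.20, 9.27 and 9.49 in the ventricle. The highest atrial array lay far below the lowest ventricular array. BAG1 was 4.95-fold lower in the uninephrectomized atrium (-2.31 ± 0.15, adjusted p = 1.68e-09) and 4.63-fold lower in the sham atrium (-2.21 ± 0.15, adjusted p = 3.02e-09), and both of its tested probe sets passed in both.

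BAG3, BAG4 and BAG5 were higher in the atrium in at least 1 operation group, and BAG2 and BAG6 did not pass. BAG5, an exchange factor with several BAG domains, ranged over 8.18 to 8.56 (median 8.37) in uninephrectomized atria, against 7.43 to 7.92 (median 7.55) in the ventricles, which do not overlap. In sham atria it ranged over 7.97 to 8.59 (median 8.52), against 7.49 to 8.09 (median 7.76) in sham ventricles, where arrays of the chambers overlap. The differences were 0.78 ± 0.14 in uninephrectomized dogs (adjusted p = 0.000328) and 0.59 ± 0.14 in sham dogs (adjusted p = 0.00473). Its 4 tested probe sets were positive in both operation groups. BAG3, the partner of HSPB8 in which human mutations cause dilated cardiomyopathy, was higher in the uninephrectomized atrium (0.36 ± 0.13, adjusted p = 0.0418). In sham dogs its difference was 0.35 ± 0.13 with adjusted p = 0.0604, and it passed with dog as a random (adjusted p = 0.0252) or a fixed block (adjusted p = 0.0114) for the sham arrays. The uninephrectomized call of BAG3 was lost in 8 of the 20 fits that left out 1 array (1, 2, 3 or 5 of the uninephrectomized atrium, or 1, 2, 4 or 5 of the ventricle). BAG4, a silencer of death receptors, was higher in the uninephrectomized atrium (0.51 ± 0.17, adjusted p = 0.0361) and differed by 0.36 ± 0.17 in sham dogs (adjusted p = 0.158). Its call was lost in 7 of the 20 fits (without 1, 2, 3 or 4 of the uninephrectomized atrium, or 1, 2 or 3 of the ventricle). The difference between the operation groups is the interaction, which passed for none of these genes (adjusted p = 1.0 for each by limma).

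Within the HSP70 family, HSPA2 and the HSP110 relative HSPA4L were higher in the atrium, and HSPA4, another HSP110 relative, was lower. HSPA2, best known for its need in mouse sperm formation, read 8.77, 8.77, 8.63, 9.22 and 8.81 in uninephrectomized atria, against 8.11, 8.20, 8.18, 8.01 and 8.41 in the ventricles. In sham atria it read 8.63, 8.62, 8.48, 8.87 and 8.86, against 7.62, 7.94, 7.50, 8.09 and 7.78 in sham ventricles. The chambers did not overlap in either operation group. HSPA2 was 1.57-fold higher in the uninephrectomized atrium (0.66 ± 0.12, adjusted p = 0.00052) and 1.88-fold higher in the sham atrium (0.91 ± 0.12, adjusted p = 2.74e-05).

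HSPA4L read 3.29, 3.00, 4.09, 3.05 and 3.42 in uninephrectomized atria, against 2.36, 2.76, 2.48, 2.69 and 2.45 in the ventricles. In sham dogs it read 3.60, 3.45, 3.11, 3.94 and 3.20 in the atrium, against 2.55, 2.84, 2.34, 2.85 and 2.85 in the ventricle. All ventricular arrays lay under log2 3, the level used here for dim. The atrial arrays lay between 2.996 and 4.09, the lowest of them at that level too. The differences were 0.82 ± 0.19 in uninephrectomized dogs (adjusted p = 0.00267) and 0.78 ± 0.19 in sham dogs (adjusted p = 0.00541), where the ventricular signal is dim. With its probe sets averaged they were 0.51 in uninephrectomized dogs (adjusted p = 0.00156) and 0.49 in sham dogs (adjusted p = 0.00264).

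HSPA4 averaged 9.21 ± 0.12 in uninephrectomized atria, against 9.74 ± 0.19 in the ventricles, and 9.19 ± 0.14 in sham atria, against 9.60 ± 0.22 in sham ventricles (SD, n = 5 each). It was lower in the atrium, with differences of -0.53 ± 0.11 in uninephrectomized dogs (adjusted p = 0.00138) and -0.41 ± 0.11 in sham dogs (adjusted p = 0.0104). Of its 3 tested probe sets 2 were negative and 1 was positive in each operation group, and the 2 that do not stand for the gene were dim and did not pass. With the probe sets averaged the difference was -0.21 in uninephrectomized dogs (adjusted p = 0.0219 by limma). In sham dogs the averaged difference was -0.14, where the call was lost (adjusted p = 0.151 by limma). HSPH1, an inducible HSP110 protein, had differences of -0.45 ± 0.22 in uninephrectomized dogs (adjusted p = 0.139) and -0.48 ± 0.22 in sham dogs (adjusted p = 0.133). With dog as a block for the sham arrays the sham difference of HSPH1 had an adjusted p of 0.0216 as a fixed block and 0.0628 as a random block. A fit without both sham arrays of number 5 was chosen after seeing the data, here and for the genes below. These arrays enter the shared estimate of the spread. Without them the difference of HSPH1 in uninephrectomized dogs stayed the same, its standard error was smaller, and it passed (-0.45 ± 0.16, adjusted p = 0.0418 by limma).

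Of the other HSP70 proteins, HSPA8 and HSPA13 passed in uninephrectomized dogs. HSPA8, the constitutive cytosolic HSP70, read 13.19, 13.28, 13.01, 13.11 and 13.08 in uninephrectomized atria, against 13.22, 13.51, 13.63, 13.39 and 13.23 in the ventricles, with overlap. Its difference of -0.26 ± 0.09 passed (adjusted p = 0.0342), was lost in 6 of the 20 fits without 1 array (3, 4 or 5 of the uninephrectomized atrium, or 2, 3 or 4 of the ventricle), and was -0.10 ± 0.09 in sham dogs (adjusted p = 0.456). HSPA5 (BiP), the HSP70 of the endoplasmic reticulum, differed by 0.00 ± 0.12 in uninephrectomized and -0.05 ± 0.12 in sham dogs, with 95% confidence intervals of -0.25 to 0.26 after uninephrectomy and -0.31 to 0.21 in sham dogs. HSPA9 (mortalin), the mitochondrial HSP70, differed by -0.27 ± 0.13 in uninephrectomized dogs (adjusted p = 0.149) and -0.20 ± 0.13 in sham dogs (adjusted p = 0.326). HSPA13, a microsomal HSP70-like ATPase, was higher in the uninephrectomized atrium (0.57 ± 0.20, adjusted p = 0.0411), a call lost in 6 of the 20 fits (without 2, 3 or 5 of the atrium, or 2, 4 or 5 of the ventricle), and differed by 0.39 ± 0.20 in sham dogs (adjusted p = 0.181). The other probe set of HSPA13 passed in both operation groups, at 0.43 in uninephrectomized dogs (adjusted p = 0.0088) and 0.41 in sham dogs (adjusted p = 0.0154). HSPA14, a ribosome-associated form, differed by 0.02 in uninephrectomized and -0.06 in sham dogs.

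**Figure D2:**
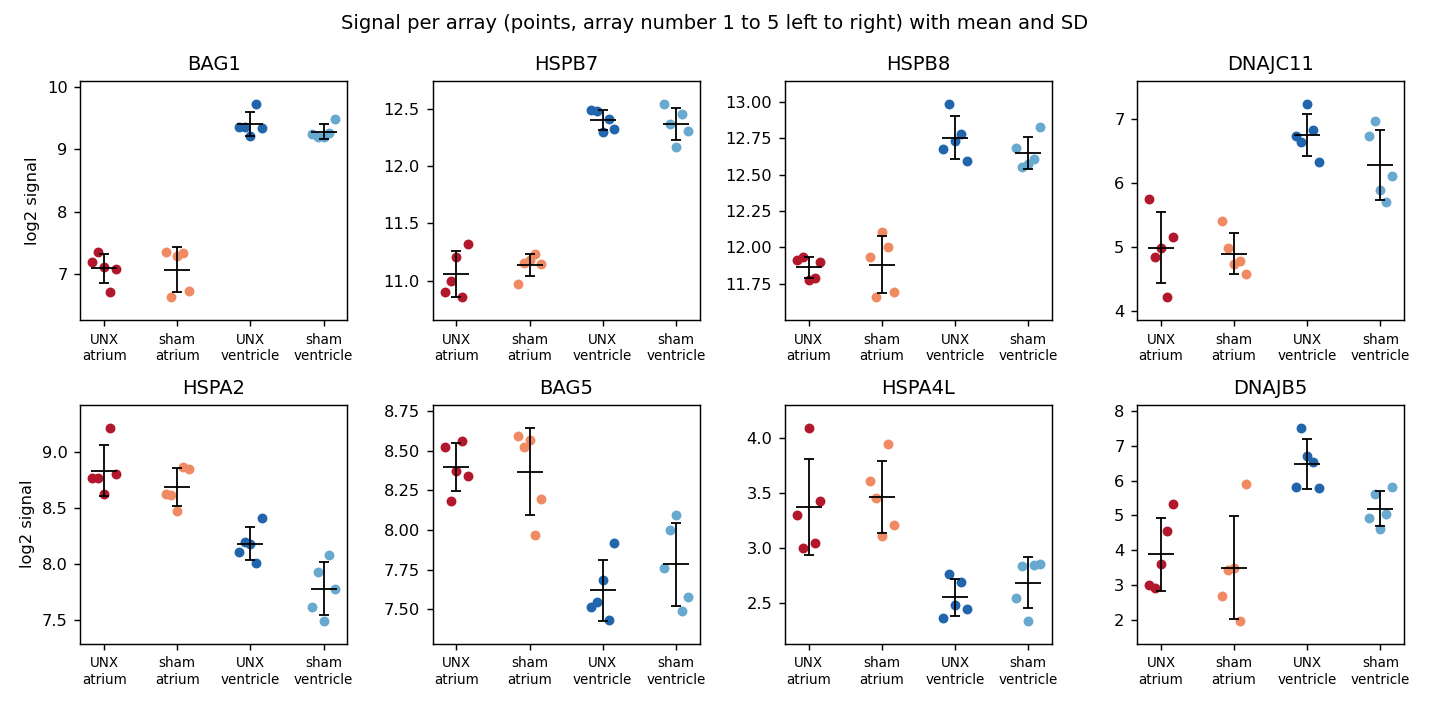
Log2 signal of 8 chaperone genes on each of the 20 arrays, with the mean and SD of each group of 5; each panel has its own vertical axis and panels are not comparable in level. BAG1, HSPB7, HSPB8 and DNAJC11 lie lower in both atrial groups, HSPA2, BAG5 and HSPA4L lie higher, and DNAJB5 spreads widely in the atrium.

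The J-domain proteins called in both operation groups were lower in the atrium with the exception of DNAJB9. Of the 19 tested DNAJC genes 6 passed in uninephrectomized dogs (1 higher, 5 lower) and 5 in sham dogs (all lower). Over all tested probe sets 27.3% passed in uninephrectomized dogs (14.7% higher, 12.5% lower) and 20.8% in sham dogs (11.2% higher, 9.62% lower). DNAJC11, a protein of the mitochondrial membranes, read 5.75, 4.84, 4.99, 4.22 and 5.15 in uninephrectomized atria, against 6.74, 6.64, 7.23, 6.83 and 6.33 in the ventricles. In sham atria it read 5.41, 4.98, 4.73, 4.79 and 4.58, against 6.74, 6.97, 5.89, 5.70 and 6.12 in sham ventricles. The chambers did not overlap in either operation group. DNAJC11 was 3.39-fold lower in the uninephrectomized atrium (-1.76 ± 0.27, adjusted p = 7.82e-05) and 2.61-fold lower in the sham atrium (-1.39 ± 0.27, adjusted p = 0.00099). All 5 of its tested probe sets were negative in both, of which 2 passed in uninephrectomized and 1 in sham dogs. Averaged over its probe sets, most of them dim, the difference of DNAJC11 was -0.54 in uninephrectomized dogs (adjusted p = 0.000645) and -0.47 in sham dogs (adjusted p = 0.00309).

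DNAJC15 and DNAJC19 are J-proteins of the mitochondrial import motor, and human DNAJC19 mutations cause a cardiomyopathy with ataxia. DNAJC15 averaged 8.07 ± 0.20 in uninephrectomized atria, against 8.56 ± 0.17 in the ventricles, and 8.13 ± 0.19 in sham atria, against 8.69 ± 0.14 in sham ventricles (SD, n = 5 each). Its differences were -0.49 ± 0.11 in uninephrectomized dogs (adjusted p = 0.00242) and -0.56 ± 0.11 in sham dogs (adjusted p = 0.00123). DNAJC19, which is given here because it passed in both although smaller than the genes picked by size, had differences of -0.32 ± 0.06 in uninephrectomized dogs (adjusted p = 0.000756) and -0.31 ± 0.06 in sham dogs (adjusted p = 0.00141). Neither gene's atrial arrays overlapped its ventricular arrays.

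DNAJC2, a J-protein of the ribosome exit site, and DNAJC21, which acts in ribosome assembly, were lower in the atrium too. DNAJC2 ranged over 9.79 to 10.24 in uninephrectomized atria, against 10.35 to 10.75 in the ventricles, and over 10.05 to 10.26 in sham atria, against 10.53 to 10.83 in sham ventricles. Its differences were -0.57 ± 0.09 in uninephrectomized dogs (adjusted p = 0.000116) and -0.53 ± 0.09 in sham dogs (adjusted p = 0.000301). DNAJC21 averaged 7.44 ± 0.20 in uninephrectomized atria, against 8.16 ± 0.12 in the ventricles, and 7.58 ± 0.15 in sham atria, against 8.20 ± 0.17 in sham ventricles (SD, n = 5 each). Its differences were -0.71 ± 0.10 in uninephrectomized dogs (adjusted p = 4.22e-05) and -0.62 ± 0.10 in sham dogs (adjusted p = 0.000219). DNAJC9, a histone chaperone, was higher in the uninephrectomized atrium (0.40 ± 0.11, adjusted p = 0.0124). In sham dogs DNAJC9 differed by 0.29 ± 0.11 with adjusted p = 0.072, or 0.0367 with dog as a random and 0.0592 as a fixed block for the sham arrays. DNAJC7, a J-protein that also binds HSP90, differed by 0.05 ± 0.07 in uninephrectomized dogs (adjusted p = 0.699) and by 0.20 ± 0.07 in sham dogs (adjusted p = 0.0669, or 0.0276 with the random and 0.0709 with the fixed block).

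DNAJB5, a cytosolic J-protein that in mouse heart cells binds class II histone deacetylases, had the largest chamber difference after uninephrectomy and the largest spread. It read 3.01, 2.90, 3.60, 4.56 and 5.32 in uninephrectomized atria, against 5.81, 7.52, 6.71, 6.54 and 5.78 in the ventricles. In sham atria it read 2.67, 3.44, 3.47, 1.97 and 5.92, against 4.93, 5.60, 4.60, 5.03 and 5.83 in sham ventricles. Atrium and ventricle did not overlap after uninephrectomy, while in sham dogs the atrial array of dog number 5 lay above every ventricular array. The difference was -2.59 ± 0.59 (6.02-fold lower in the atrium, adjusted p = 0.00296) and -1.70 ± 0.59 in sham dogs (adjusted p = 0.0485). The sham call was lost in 15 of the 20 fits without 1 array, and held without array 5 of the sham atrium, 2 or 5 of the uninephrectomized atrium, 2 of the uninephrectomized ventricle or 3 of the sham ventricle. It was -0.99 with the probe sets averaged (adjusted p = 0.0727). Without both sham arrays of number 5, left out after seeing the data, the sham difference was -2.15 ± 0.51 (adjusted p = 0.00829).

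DNAJB9, a J-partner of BiP induced by the unfolded protein response, was higher in the atrium, by 0.27 ± 0.10 in uninephrectomized dogs (adjusted p = 0.0413) and 0.33 ± 0.10 in sham dogs (adjusted p = 0.0193). The call after uninephrectomy was lost in 6 of the 20 fits without 1 array (1, 3 or 4 of the uninephrectomized atrium, or 3, 4 or 5 of the ventricle), and the sham call without array 3 of the sham ventricle and with the 3' gap as a covariate. Without both sham arrays of number 5 the adjusted p was 0.0522 in uninephrectomized and 0.0798 in sham dogs. DNAJB14, a J-protein of the endoplasmic reticulum membrane, read 7.37, 7.40, 7.31, 7.41 and 7.40 in sham atria, against 6.95, 7.20, 6.86, 7.26 and 6.63 in sham ventricles. It passed there (0.40 ± 0.11, adjusted p = 0.0164), but not without the ventricular array of dog 5, and it differed by 0.18 ± 0.11 in uninephrectomized dogs (adjusted p = 0.265). DNAJB12, its paralogue, differed by 0.23 ± 0.09 in uninephrectomized dogs (adjusted p = 0.0623) and 0.18 ± 0.09 in sham dogs (adjusted p = 0.186). Without both sham arrays of number 5, left out after seeing the data, DNAJB12 passed in uninephrectomized dogs (adjusted p = 0.0316). DNAJB1, DNAJB4 and DNAJB6, the J-proteins best known from the heat shock response and from muscle, had no called difference (adjusted p from 0.182 to 0.935).

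DNAJA3, the mitochondrial J-protein whose loss in mouse heart gives cardiomyopathy, read 4.51, 4.53, 4.26, 3.84 and 4.16 in uninephrectomized atria, against 5.29, 5.17, 5.50, 5.29 and 4.62 in the ventricles. The chambers did not overlap, and the difference of -0.91 ± 0.19 passed (adjusted p = 0.00146), or -0.57 averaged over its probe sets (adjusted p = 0.00997). In sham dogs it read 4.36, 4.03, 3.79, 3.93 and 4.25 in the atrium, against 4.84, 5.14, 4.16, 4.33 and 4.39 in the ventricle, with overlap. The sham difference was -0.50 ± 0.19 (adjusted p = 0.0725, or 0.0346 with dog as a random and 0.0443 as a fixed block for the sham arrays). DNAJA4, a cytosolic J-protein given here because it was called though outside the genes picked by size, was lower in the uninephrectomized atrium (-0.46 ± 0.15, adjusted p = 0.0285), a call lost in 6 of the 20 fits (without 3 or 4 of the atrium, or 1, 2, 3 or 4 of the ventricle), and differed by -0.20 ± 0.15 in sham dogs (adjusted p = 0.398).

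The HSP90 genes, the mitochondrial chaperonin and most of CCT showed no called chamber difference. HSP90AA1, the inducible cytosolic HSP90, differed by 0.02 ± 0.08 in uninephrectomized and -0.01 ± 0.08 in sham dogs. The constitutive HSP90AB1 differed by 0.09 ± 0.11 in uninephrectomized and 0.09 ± 0.11 in sham dogs, and HSP90B1 (GRP94) of the endoplasmic reticulum by 0.01 ± 0.10 in uninephrectomized and -0.01 ± 0.10 in sham dogs. Their 95% confidence intervals bound the differences to between -0.21 and 0.32. HSPD1 (HSP60) differed by 0.07 ± 0.06 in uninephrectomized and 0.10 ± 0.06 in sham dogs, and HSPE1 (HSP10) by 0.10 ± 0.06 in uninephrectomized and 0.03 ± 0.06 in sham dogs. Of the 8 CCT genes, among them the dim CCT6B and CCT8L2, 0 passed in uninephrectomized dogs and 1 in sham dogs. Over all tested probe sets 27.3% passed in uninephrectomized and 20.8% in sham dogs. The CCT gene that passed was CCT5, given for that reason, at -0.18 ± 0.06 in sham dogs (adjusted p = 0.0344 by limma). That call was lost in 8 of the 20 fits without 1 array (1 to 4 of the sham atrium, or 2 to 5 of the sham ventricle) and with dog as a fixed block in the sham arrays (adjusted p = 0.11, against 0.0141 as a random block). HSPBAP1, which binds HSPB1, was lower in the atrium in both operation groups, with differences of -0.48 ± 0.17 in uninephrectomized dogs (adjusted p = 0.0425) and -0.65 ± 0.17 in sham dogs (adjusted p = 0.00961). Its call after uninephrectomy was lost in 6 of the 20 fits without 1 array (1, 2 or 3 of the uninephrectomized atrium, or 2, 4 or 5 of the ventricle).

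Array ranges of the chambers did not overlap for 15 of 67 genes after uninephrectomy (3 above, 12 below in the atrium) and for 13 in sham dogs (4 above, 9 below). Over all tested probe sets the shares were 21% after uninephrectomy (11.4% above, 9.57% below) and 14.3% in sham dogs (7.59% above, 6.67% below).

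Genes that regulate or assist the chaperones were read from a separate list of 55, of which 50 were tested. In uninephrectomized dogs 5 were higher and 13 lower in the atrium, and in sham dogs 2 were higher and 10 lower. Over all tested probe sets 27.3% were called in uninephrectomized dogs (14.7% higher, 12.5% lower) and 20.8% in sham dogs (11.2% higher, 9.62% lower). Those higher in uninephrectomized dogs were CALR (0.32), CDC37L1 (0.21), EIF2AK3 (0.60, dim), PPID (0.19) and SGTB (0.50), and those higher in sham dogs were CDC37L1 (0.20) and PTGES3 (0.38). HSF1, the heat shock transcription factor, averaged 7.88 ± 0.22 in uninephrectomized atria, against 8.30 ± 0.11 in the ventricles, a difference of -0.42 ± 0.09 (adjusted p = 0.00187). In sham dogs HSF1 was also lower in the atrium (difference -0.38 ± 0.09, adjusted p = 0.00556). CLPP, the mitochondrial matrix protease, had the largest differences of the list at -1.41 ± 0.13 in uninephrectomized dogs (adjusted p = 1.56e-07) and -1.11 ± 0.13 in sham dogs (adjusted p = 3.71e-06). GRPEL1, the nucleotide exchange factor of HSPA9, was lower in the atrium, with differences of -0.55 ± 0.12 in uninephrectomized dogs (adjusted p = 0.002) and -0.40 ± 0.12 in sham dogs (adjusted p = 0.0232). The prefoldin subunit PFDN1, which passes actin and tubulin to CCT, was lower too, with differences of -0.75 ± 0.11 in uninephrectomized dogs (adjusted p = 5.55e-05) and -0.65 ± 0.11 in sham dogs (adjusted p = 0.000314). TCP1, the CCT subunit that the symbol rule does not take, differed by 0.02 in uninephrectomized and 0.08 in sham dogs.

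Uninephrectomy was tested in each chamber, and no chaperone gene passed the test in either. In the atrium 0 of 67 genes passed (0% of all 30047 probe sets), and 1 had an unadjusted p under 0.05, beside 2010 of all probe sets. In the ventricle 0 of 67 passed (0% of all probe sets), and 7 had an unadjusted p under 0.05, beside 2005. The median difference was -0.02 in the atrium and 0.00 in the ventricle, against 0.00 over all probe sets in each. In the atrium 65 of 67 differences were smaller than 0.2, and in the ventricle 57. The 95% confidence interval lay within 0.5 of 0 on either side for 57 genes in the atrium and 54 in the ventricle.

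**Figure D3:**
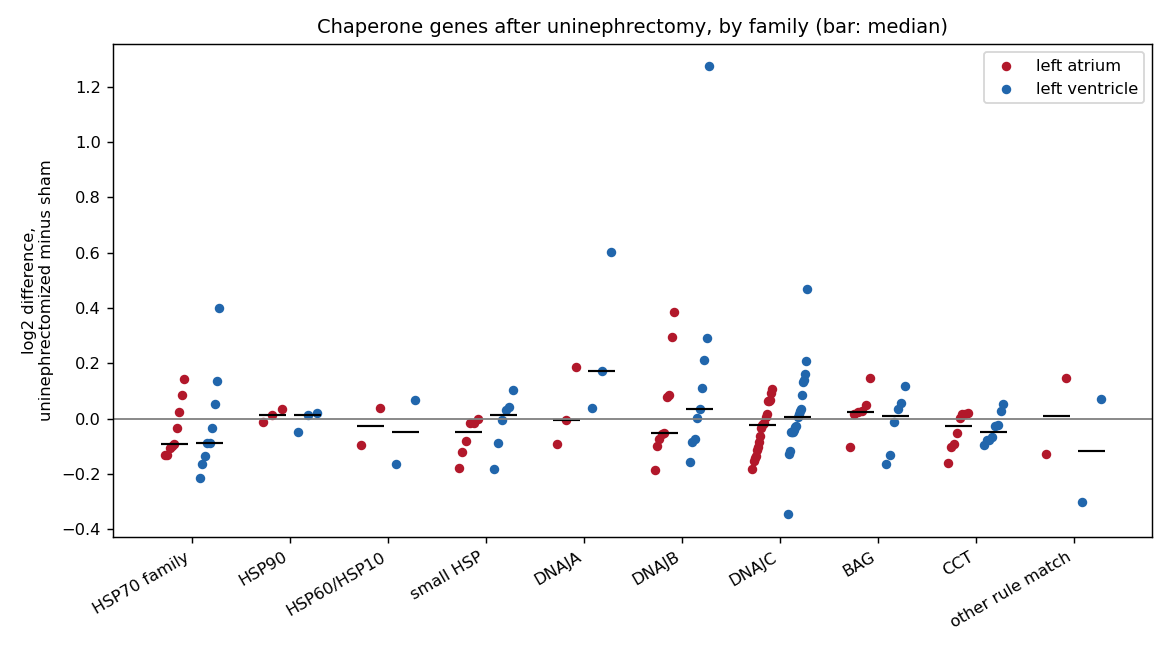
Log2 difference, uninephrectomized minus sham, of the 67 tested chaperone genes by family, in left atrium (left points of each family) and left ventricle (right points), with the family median as a bar. Most points lie within 0.2 of 0, and the ventricular point highest above the rest is DNAJB5 at 1.27.

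In the ventricle HSPA2 had the smallest p. It read 8.11, 8.20, 8.18, 8.01 and 8.41 in uninephrectomized ventricles, against 7.62, 7.94, 7.50, 8.09 and 7.78 in sham ventricles. Of the 5 uninephrectomized arrays 4 lay above every sham array, and the ranges overlap by the remaining one. The difference of 0.40 ± 0.12 (1.32-fold, unadjusted p = 0.00397 by limma) had an adjusted p of 0.558, and the atrial difference was 0.15 ± 0.12 (adjusted p = 0.84).

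DNAJA3 read 5.29, 5.17, 5.50, 5.29 and 4.62 in uninephrectomized ventricles, against 4.84, 5.14, 4.16, 4.33 and 4.39 in sham ventricles, with overlap. Its difference was 0.60 ± 0.19 (adjusted p = 0.587) there and 0.19 ± 0.19 in the atrium (adjusted p = 0.879). DNAJB5 read 5.81, 7.52, 6.71, 6.54 and 5.78 in uninephrectomized ventricles, against 4.93, 5.60, 4.60, 5.03 and 5.83 in sham ventricles, with overlap. Its difference of 1.27 ± 0.59 (2.42-fold) had the widest confidence interval of the set, 0.03 to 2.52, and an adjusted p of 0.743. In the atrium the difference of DNAJB5 was 0.38, the largest positive one of the 67 genes there, and did not pass. Without both sham arrays of number 5, left out after seeing the data, the atrial difference was 0.99 ± 0.48 (adjusted p = 0.54 by limma). DNAJB4 read 11.73, 12.28, 12.38, 11.68 and 11.64 in uninephrectomized ventricles, against 11.50, 11.73, 11.67, 11.66 and 11.68 in sham ventricles. Arrays 2 and 3 of the uninephrectomized ventricle stand above all others, and the difference was 0.29 ± 0.13 (adjusted p = 0.72). DNAJC6, the clathrin-uncoating auxilin of neurons, was dim, with a difference of 0.14 ± 0.06 (adjusted p = 0.734).

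HSPE1 was the only chaperone gene whose ventricular ranges did not overlap between the operations, a property of 0.992% of all probe sets in this comparison (0.396% above, 0.596% below). It read 12.01, 11.96, 12.05, 11.88 and 12.01 in uninephrectomized ventricles, against 12.13, 12.08, 12.20, 12.20 and 12.13 in sham ventricles. The difference was small at -0.16 ± 0.06 (1.12-fold lower, adjusted p = 0.654), and in the atrium it was -0.09 ± 0.06 with overlap (adjusted p = 0.794). HSPD1, its neighbour in the RefSeq gene table and its partner in the chaperonin, differed by 0.07 ± 0.06 in the ventricle and 0.04 ± 0.06 in the atrium. The other ventricular genes with small p and a negative difference were HSPA14 (-0.21 ± 0.10, adjusted p = 0.746), DNAJC3 (-0.35 ± 0.17, adjusted p = 0.748), HSPBAP1 (-0.30 ± 0.17, adjusted p = 0.758) and DNAJB12 (-0.16 ± 0.09, adjusted p = 0.761). DNAJC3 inhibits the kinase that slows translation when proteins unfold in the endoplasmic reticulum.

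In the atrium the largest positive differences by p belonged to HSPBP1 (0.15 ± 0.09), an exchange factor of HSP70, DNAJB1 (0.30 ± 0.19), the main inducible J-protein, and DNAJC13 (0.11 ± 0.07), a J-protein of endosomes. The largest negative ones by p were CCT8 (-0.16 ± 0.07), CCT2 (-0.10 ± 0.06), DNAJB14 (-0.18 ± 0.11), HSPE1 (-0.09 ± 0.06) and DNAJC25 (-0.11 ± 0.07). Adjusted p by limma for these 8 genes lay between 0.735 and 0.802. CCT8 read 11.31, 11.22, 11.07, 11.20 and 11.17 in uninephrectomized atria, against 11.40, 11.47, 11.27, 11.35 and 11.29 in sham atria, with overlap, and its sign turned (0.0037) when its probe sets were averaged. Among the small heat shock proteins, of which none passed, 6 of 6 differences after uninephrectomy were negative in the atrium (15339 of 30047 over all probe sets) and 3 of 6 in the ventricle. HSPB2 had the largest in the atrium at -0.18 ± 0.17 (adjusted p = 0.867), while HSPB3 (-0.0011), HSPB8 (-0.017) and the dim HSPB9 (-0.015) lay close to 0 there. Array ranges overlapped for all 67 genes in the atrium, while 0.929% of all probe sets did not overlap (0.436% above, 0.493% below).

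Genes of the stress responses did not pass either. After uninephrectomy HSPH1 differed by -0.13 ± 0.22 in the atrium and -0.16 ± 0.22 in the ventricle, HSP90AA1 by -0.01 ± 0.08 in the atrium and -0.05 ± 0.08 in the ventricle, HSPA8 by -0.11 ± 0.09 in the atrium and 0.05 ± 0.09 in the ventricle, and BAG3 by 0.05 ± 0.13 in the atrium and 0.03 ± 0.13 in the ventricle. The endoplasmic reticulum genes HSPA5 (-0.03 ± 0.12 and -0.09 ± 0.12), HSP90B1 (0.03 ± 0.10 and 0.02 ± 0.10) and DNAJB9 (-0.06 ± 0.10 and 0.00 ± 0.10) had differences of similar size. Of the 50 partner genes 0 passed in either chamber by limma, where 5 in the atrium and 4 in the ventricle had an unadjusted p under 0.05. HSF1 differed by -0.08 ± 0.09 in the atrium and -0.04 ± 0.09 in the ventricle. Of 8 immediate early genes 0 passed by limma, with median differences of 0.24 in the atrium and 0.27 in the ventricle.

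Whether the response to uninephrectomy differed between the chambers was tested as an interaction. For the difference of the atrial and the ventricular effect, 0 of 67 genes passed (0% of all probe sets), and 0 had an unadjusted p under 0.05 by limma, beside 893 of all probe sets. The smallest p belonged to DNAJA3 (-0.41 ± 0.27), HSPA2 (-0.25 ± 0.17), DNAJC7 (-0.15 ± 0.11), DNAJC17 (-0.31 ± 0.22) and DNAJB14 (-0.22 ± 0.16), with adjusted p of 1.0 for each. A negative value means that the atrial effect was lower than the ventricular one. The interval of this difference lay within 0.5 of 0 for 46 of the 67 genes.

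The 5 genes with the largest spread within groups were DNAJB5, DNAJC11, DNAJC12, HSPH1 and HSPA13, of which DNAJC12 was dim. HSPH1 read 9.13, 9.70, 9.84, 9.19 and 9.16 in uninephrectomized ventricles, against 9.33, 9.20, 9.16, 9.69 and 10.44 in sham ventricles. In the atrium it read 9.14, 8.98, 8.66, 8.99 and 8.99 after uninephrectomy, against 8.88, 8.92, 8.76, 9.36 and 9.52 in sham dogs. The highest value of each sham group was that of number 5, and arrays 2 and 3 were highest among the uninephrectomized ventricles. Without both sham arrays of number 5 the ventricular difference of HSPH1 was 0.06 ± 0.17 instead of -0.16 ± 0.22.

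Sham dog number 5 was the highest of its group in both chambers for 14 of the 67 genes (20.9%), while 4.88% of all tested probe sets had this pattern. The 14 were HSP90AA1, HSP90AB1, HSP90B1, HSPA5, HSPH1, HSPD1, BAG3, DNAJB5, DNAJB11, DNAJC9 and the CCT subunits CCT2, CCT3, CCT4 and CCT5. HSP90AA1 read 12.48, 12.37, 12.39, 12.59 and 12.69 in sham atria and 12.45, 12.32, 12.41, 12.57 and 12.83 in sham ventricles. HSPA5 read 12.16, 12.68, 12.15, 12.46 and 12.75 in sham atria and 12.44, 12.50, 12.32, 12.37 and 12.80 in sham ventricles. In each of these groups the fifth value stands at the top. Sham dog 3 was lowest in both chambers for 12 genes (17.9%, beside 8.62% of all probe sets), among them HSPA5, HSPA9, HSPH1, HSP90AB1 and HSP90B1, sham dog 1 for 8 (11.9%, beside 5.87%) and sham dog 2 for 7 (10.4%, beside 4.91%). Equal numbers mark 1 dog here only as far as the data pair the sham arrays. This pattern was noticed in these data and has no test.

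A probe set annotated as HSP70 lies outside the symbol rule and is given because its values stood out. It read 8.62, 9.85, 11.07, 8.65 and 8.60 in uninephrectomized ventricles, against 8.12, 9.22, 8.03, 8.25 and 9.85 in sham ventricles. In the atrium it read 8.42, 8.58, 8.21, 8.45 and 8.49 after uninephrectomy, against 7.95, 8.32, 8.20, 8.12 and 9.23 in sham dogs. Arrays 2 and 3 of the uninephrectomized ventricle and arrays 2 and 5 of the sham ventricle were high, as was array 5 of the sham atrium. HSPH1, DNAJB4, DNAJB5, HSPA8, HSPD1, HSP90AA1 and HSP90B1 were among the named chaperones highest in the same 2 uninephrectomized ventricles. Others were not, such as HSPA5, HSPA9 and HSPB7. BAG3 was highest in array 3 of that group. For the HSP70 probe set the difference after uninephrectomy was 0.67 ± 0.43 in the ventricle (adjusted p = 0.779 by limma). In the atrium it was 0.07 ± 0.43 (adjusted p = 0.989 by limma). HSPA1A, HSPA1L and DNAJA1 have no probe set that names them alone and are not analysed here.

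**Figure D4:**
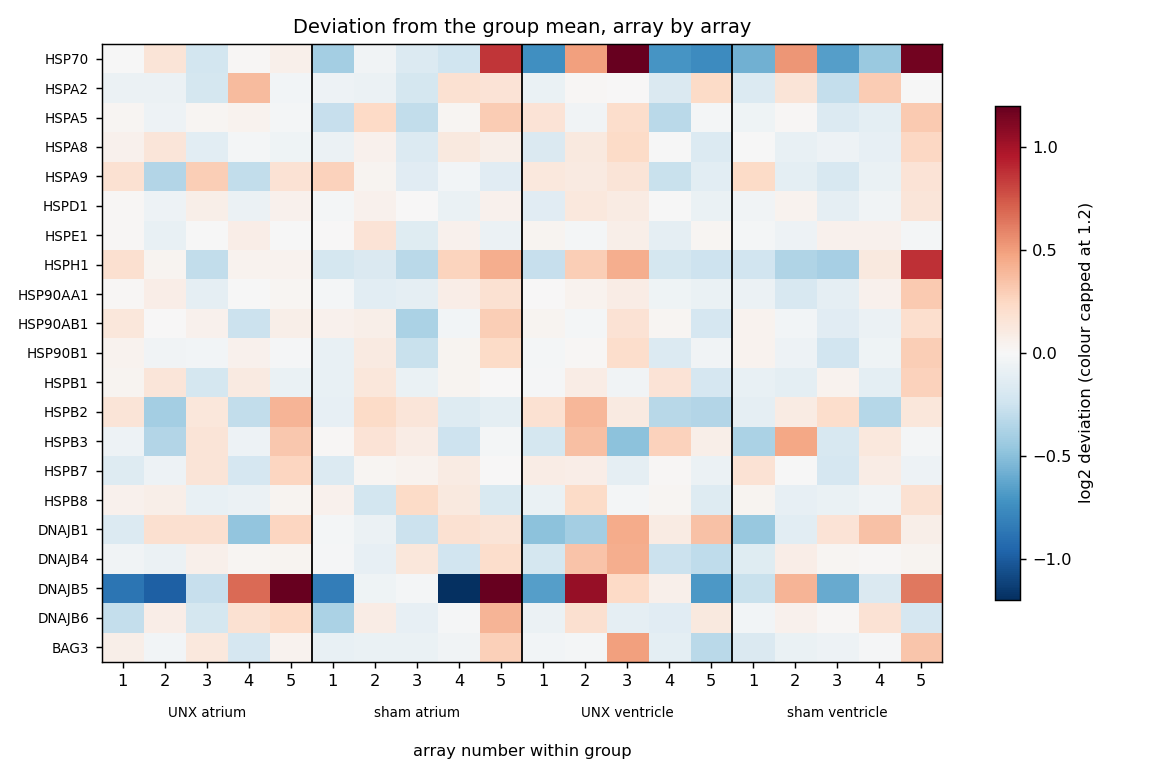
Deviation of each array from its group mean on the log2 scale, for named chaperones (rows) with the probe set annotated as HSP70 on top, over the 20 arrays in 4 groups (columns). Array 5 of both sham groups and arrays 2 and 3 of the uninephrectomized ventricle are red for HSP70 and for HSPH1.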

How the data were processed

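Biotin-labelled RNA was prepared from 100 ng of total RNA per tissue sample with an in vitro transcription kit and hybridized to 1 array per sample, per the labels' protocols. The authors deposited a table of log2 values per probe set, which range from 0.43 to 15.02; the summarization and normalization behind them are not given in the sources used here. The values were used as deposited, with no depth to state: the number of arrays limits the precision. Genes were named from the platform annotation (29264 probe sets with 1 symbol, 439 with several, 13332 not listed), and 75 of the 76 symbols were found in the RefSeq gene table (assembly mCanLup2.hap1), used only for names and neighbours. Control probe sets (111) and the 30% with the lowest mean (below log2 1.87) were not tested.

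All 20 arrays entered 1 group-means model in limma (version 3.58.1, under R 4.3.3; functions lmFit and eBayes; 16 residual degrees of freedom; two-sided), with Benjamini-Hochberg adjustment over 30047 probe sets and calls at adjusted p under 0.05. The fit was tested on simulated data. Per chamber comparison, the 10 called genes with the largest difference in each direction were named. Per surgery comparison, the 5 genes of lowest p on either side of 0 were named, and for the interaction the 5 of lowest p. The 5 with the largest spread and a list of well-known chaperones were also named. The members and gene lists were chosen with earlier results of these data known. The labels do not say that equal numbers mark 1 dog, and p-values measure the spread between these samples. Whether same-numbered atrial and ventricular arrays deviate together was checked over all tested probe sets: the correlations were 0.463, 0.226, 0.373, 0.295 and 0.209 in sham dogs, each the highest for its number, and -0.0608, -0.0689, 0.115, -0.235 and 0.0971 in uninephrectomized dogs. Only the sham numbers were therefore taken to pair. Alternatives changed the filter, the scaling, the weights, the block, the covariate, the probe sets and the arrays.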

Additional observations from a re-analysis of the deposited data

Results flagged for a closer look

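Among 192 combinations of 48 named genes and 4 groups, 8 held 1 array far from the other 4, with a gap over the group's range above Dixon's critical value of 0.71 for 5 samples. Chance alone flags about 1 in 20 groups. In the uninephrectomized ventricle BAG1 read 9.72 on array 4, against 9.22 to 9.36 on the others, DNAJC25 read 6.91 on array 4, against 7.05 to 7.08, and DNAJC7 read 8.77 on array 1, against 8.58 to 8.63. In the sham ventricle BAG1 read 9.49 and HSPA8 13.595 on array 5, where the other arrays reached 9.27 and 13.34. In the sham atrium BAG3 read 11.02 on array 5, against 10.64 to 10.70 on the others, DNAJC17 read 3.59 on array 5, against 4.12 to 4.30, and DNAJC2 read 10.26 on array 3, against 10.05 to 10.11. The chamber difference of BAG1 and DNAJC2 was called without each of these arrays.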

How the results depend on the processing

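The count of chaperone genes called after uninephrectomy was 0 in the atrium, in the ventricle and for their interaction under every alternative run. Called chamber differences numbered 19 to 23 after uninephrectomy and 15 to 22 in sham dogs over the alternatives that kept all arrays. Leaving out 1 array gave 16 to 23 after uninephrectomy, with the lowest count without array 3 of the uninephrectomized atrium, and 15 to 18 in sham dogs. Without both sham arrays of number 5, an alternative chosen after seeing the data, the counts were 23 and 15. The shares over all tested probe sets under these alternatives are not given here. Changes in these counts are therefore not read as particular to the chaperone genes. Among 64 results, 1 reversed: the atrial difference of CCT8 after uninephrectomy was 0.0037 with the mean of its probe sets, in place of -0.16 (adjusted p = 0.994 by limma). Single calls were lost 26 times under other settings and 73 times when arrays were left out, and the cause was not tested. After uninephrectomy calls were lost with quantile normalization (BAG4, DNAJB9, HSPA13, HSPA8), no filter (BAG3, HSPA13, HSPBAP1), the compared groups alone (BAG3, HSPA8) or averaged probe sets (BAG3, DNAJB9). In sham dogs DNAJB5 lost its call under 6 of 13 settings and CCT5 under 5.

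With array number within each operation as a block in all arrays, the fits gave 23 calls after uninephrectomy and 19 in sham dogs as a random block. As a fixed block they gave 20 and 19. The uninephrectomized numbers did not pair, so there this block joins arrays that are not known to share a dog. With the block on the sham arrays alone, added after seeing the data because only these paired, 22 sham genes were called as a random block and 19 as a fixed block within the 10 sham arrays, against 17 without it. The shares over all tested probe sets under these blocks are not given here either, so the rise is not read as particular to the chaperone genes. The random and fixed blocks on the sham arrays both called BAG3 and DNAJA3 and differed on DNAJC7, DNAJC9, HSPB3, HSPH1 and CCT5. Beside these sham calls, named genes lost a call only after uninephrectomy (HSPA13 and HSPA8, fixed block in all arrays), where the numbers did not pair. Probe sets near background, such as those of HSPB6 and the ventricular HSPA4L, limit what these arrays can show.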
